A study of Homo sapiens with 16 samples.

Results

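The aminoacyl-tRNA synthetases join each amino acid to the transfer RNAs that carry it. The 35 genes described here were chosen by name from the gene lists of the deposited tables, which hold 61906 genes, by membership in this enzyme family and not by a threshold on a measured value. Of them, 19 encode the cytosolic enzymes and 16 the mitochondrial ones. KARS1 and GARS1, which encode both a cytosolic and a mitochondrial form, were kept with the cytosolic genes. The 35 genes hold 664 of the 251295 listed transcripts, and MARS2 and PARS2 are the 2 genes with 1 listed transcript each.

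The study used small interfering RNA (siRNA) to deplete HNRNPH1, a nuclear RNA-binding protein that binds runs of guanines and regulates splicing. Its cells were HEK-293T, a line from embryonic kidney that expresses the large T antigen of SV40, and HT-1080, a fibrosarcoma line. In each line, cells received 20 nM of siRNA against HNRNPH1 (siHNRNPH1) or of a negative control (siNegative), and RNA was taken 48 h later, with no other treatment or genotype in any group. Each of the 4 groups has 3 short-read libraries, which the labels call biological replicates, and 1 full-length cDNA (IsoSeq) pool.

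Synthetases fall into a pair of structural classes with unrelated catalytic folds. Most amino acids have a cytosolic enzyme and a separate nuclear-encoded enzyme that is imported into mitochondria. In the cytosol, several synthetases and a few non-enzymatic scaffold proteins form the multi-synthetase complex. Uncharged tRNA activates the kinase GCN2, which raises the translation of the transcription factor ATF4, and many cytosolic synthetase genes are known ATF4 targets.

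Total expected counts were 107.7 to 121.0 M (mega) in the HEK-293T libraries and 27.3 to 32.7 M in the HT-1080 libraries. Levels are given as CPM, the counts of a gene per mega counts of its library, which are not divided by gene length and so are compared only between samples. HNRNPH1 itself stood at 1107, 1105 and 1121 CPM in HEK-293T siNegative and at 234, 376 and 394 CPM in siHNRNPH1, and in HT-1080 at 635, 606 and 617 CPM against 231.5, 231 and 228.5 CPM. All siHNRNPH1 libraries lay below all siNegative libraries of their line. Replicate 1 of HEK-293T siHNRNPH1 stood apart from replicates 2 and 3. The numbers of genes that passed in HEK-293T, and the values of many genes, are therefore given also without it. Where no such value is given, the call may still change without it. The summed level of 5 HEK-293T markers was 499 to 526 CPM in the siNegative and 581 to 792 CPM in the siHNRNPH1 libraries of that line, and 129 to 137 against 99.6 to 103 CPM in HT-1080. That of 6 fibrosarcoma markers was 7720 to 7960 CPM in HT-1080 siNegative and 6290 to 6430 CPM in siHNRNPH1, and 46.7 to 47.4 against 55.3 to 96.6 CPM in HEK-293T. Both marker sums thus differed between the siRNA groups of each line without overlap. The 4 leukocyte markers summed to at most 1.49 CPM in any library. What part these shifts had in the results was not tested.

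All 35 genes passed the filter on low counts in both lines, and the lowest count of any member in any library was 1045 (HEK-293T) and 159 (HT-1080). In HEK-293T, 3 of the 35 passed an adjusted p of 0.05 in edgeR's quasi-likelihood test with Benjamini-Hochberg (BH) adjustment: IARS1 and MARS1 fell and PARS2 rose. Of all genes tested in that line, 10.0% passed, 5.12% as higher and 4.88% as lower. In HT-1080, 24 of the 35 passed, 9 higher and 15 lower, beside 65.3% of all genes tested (32.7% higher and 32.6% lower), so the share of synthetases that changed was near that of genes in general. The same 3 genes that passed in HEK-293T passed in HT-1080, in the same direction. The members' changes were small: the median absolute log2 fold change was 0.17 in HEK-293T and 0.20 in HT-1080, against 0.34 and 0.39 over all genes tested. The members were not compared with genes of like counts. In RNA from whole cultures, fewer cells with a transcript and less of it per cell cannot be told apart.

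**Figure D1:**
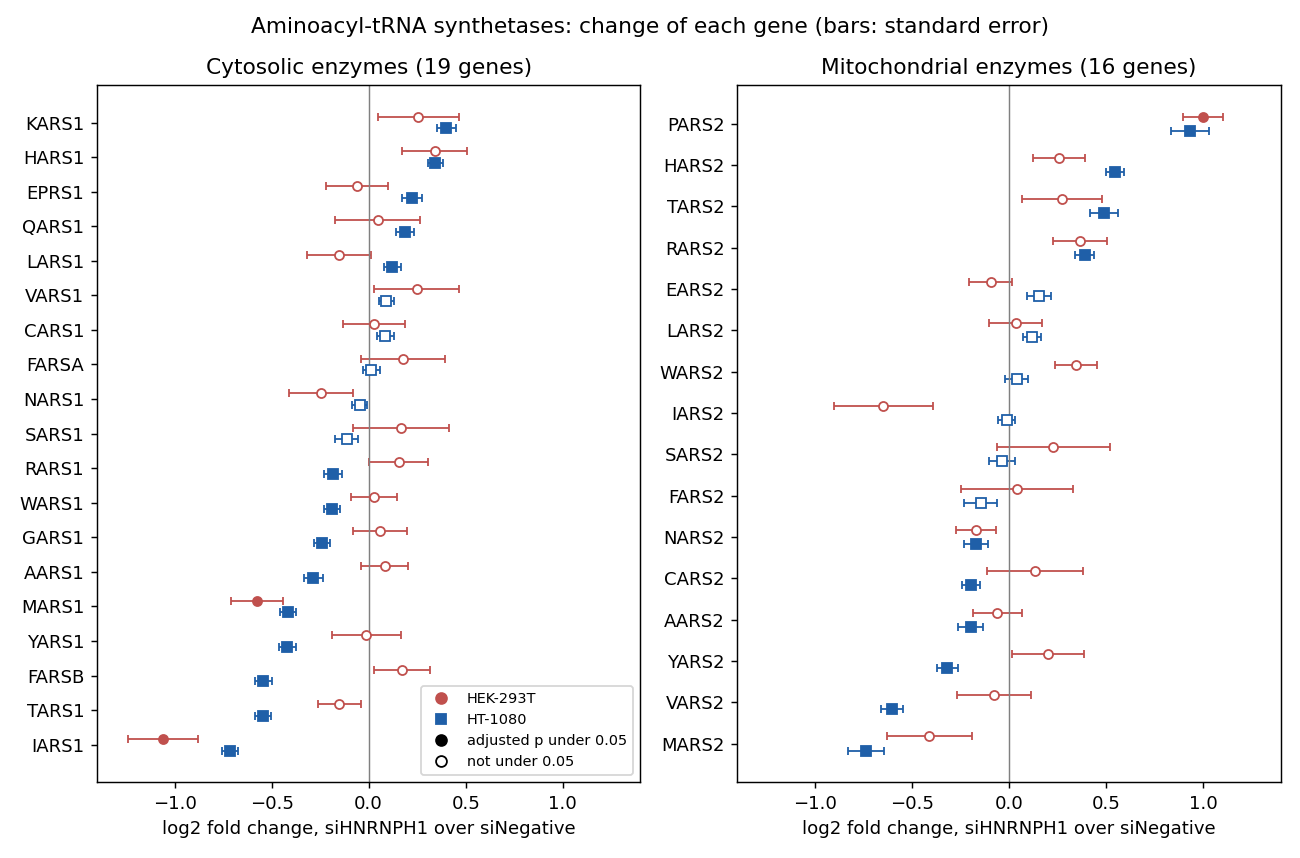
Log2 fold change of each synthetase gene (siHNRNPH1 over siNegative, bars show the standard error) in HEK-293T (circles) and HT-1080 (squares), with cytosolic enzymes on the left and mitochondrial enzymes on the right, ordered by the change in HT-1080. Filled symbols passed an adjusted p of 0.05: 3 of the 35 circles and 24 of the 35 squares, with IARS1, MARS1 and PARS2 filled in both.

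IARS1 (ENSG00000196305.19) encodes cytosolic isoleucyl-tRNA synthetase, a member of the multi-synthetase complex. In HEK-293T its level was 695, 704 and 699 CPM in the siNegative libraries and 249.7, 382 and 399 CPM in the siHNRNPH1 libraries. In HT-1080 it was 305, 283 and 306 CPM against 189, 191 and 192 CPM. The groups did not overlap in either line, and replicate 1 of HEK-293T siHNRNPH1 was the lowest of its group. The log2 fold change was -1.06 (SE 0.18, edgeR adjusted p = 0.0236) in HEK-293T and -0.71 (SE 0.04, adjusted p = 5.08e-07) in HT-1080. Without replicate 1, the HEK-293T value was -0.90 (edgeR adjusted p = 3.8e-17).

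MARS1 (ENSG00000166986.15) encodes cytosolic methionyl-tRNA synthetase, which charges both the initiator and the elongator methionine tRNAs. Its level was 292, 291 and 297.5 CPM in HEK-293T siNegative and 219.5, 192 and 189 CPM in siHNRNPH1. In HT-1080 it was 323, 331 and 324 CPM against 258, 258 and 253 CPM. Every siHNRNPH1 library lay below every siNegative library of its line. The log2 fold change was -0.58 (SE 0.13, edgeR adjusted p = 0.0476) in HEK-293T, -0.68 (adjusted p = 3.17e-15) there without replicate 1, and -0.42 (SE 0.04, adjusted p = 1.28e-05) in HT-1080. MARS1 overlaps ARHGAP9 and DDIT3 in the RefSeq annotation, and whether reads were counted by strand is not given in the sources used here, so reads of these genes may be shared.

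PARS2 (ENSG00000162396.6) encodes mitochondrial prolyl-tRNA synthetase and had the largest rise among the 35 genes in both lines. Its level was 11.14, 10.98 and 10.63 CPM in HEK-293T siNegative and 21.93, 22.97 and 21.88 CPM in siHNRNPH1. In HT-1080 it was 5.82, 6.61 and 7.57 CPM against 13.1, 12.9 and 14.2 CPM. The siHNRNPH1 libraries were all higher, and for this gene replicate 1 of HEK-293T did not depart from the other libraries of its group. The log2 fold change was 1.00 (SE 0.10, edgeR adjusted p = 0.00754) in HEK-293T, 0.98 (adjusted p = 2.4e-13) without replicate 1, and 0.93 (SE 0.10, adjusted p = 2.36e-05) in HT-1080. The HEK-293T calls of all 3 genes were lost when any 1 siNegative library of that line was left out: the adjusted p was then 0.123 to 0.127 for IARS1, 0.195 to 0.203 for MARS1 and 0.0763 to 0.0817 for PARS2, in edgeR. The log2 fold changes moved little (-1.05 to -1.07, -0.57 to -0.59 and 0.98 to 1.01), and those fits called 0 to 20 of all genes tested. Without siNegative replicate 2 or 3 the number was 0. Every gene-level edgeR call in HEK-293T with all libraries, also of genes outside the 35, was thus lost there. Those of IARS1 and MARS1 were also lost without siHNRNPH1 replicate 2 (0.0762 and 0.147) or replicate 3 (0.0556 and 0.121).

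**Figure D2:**
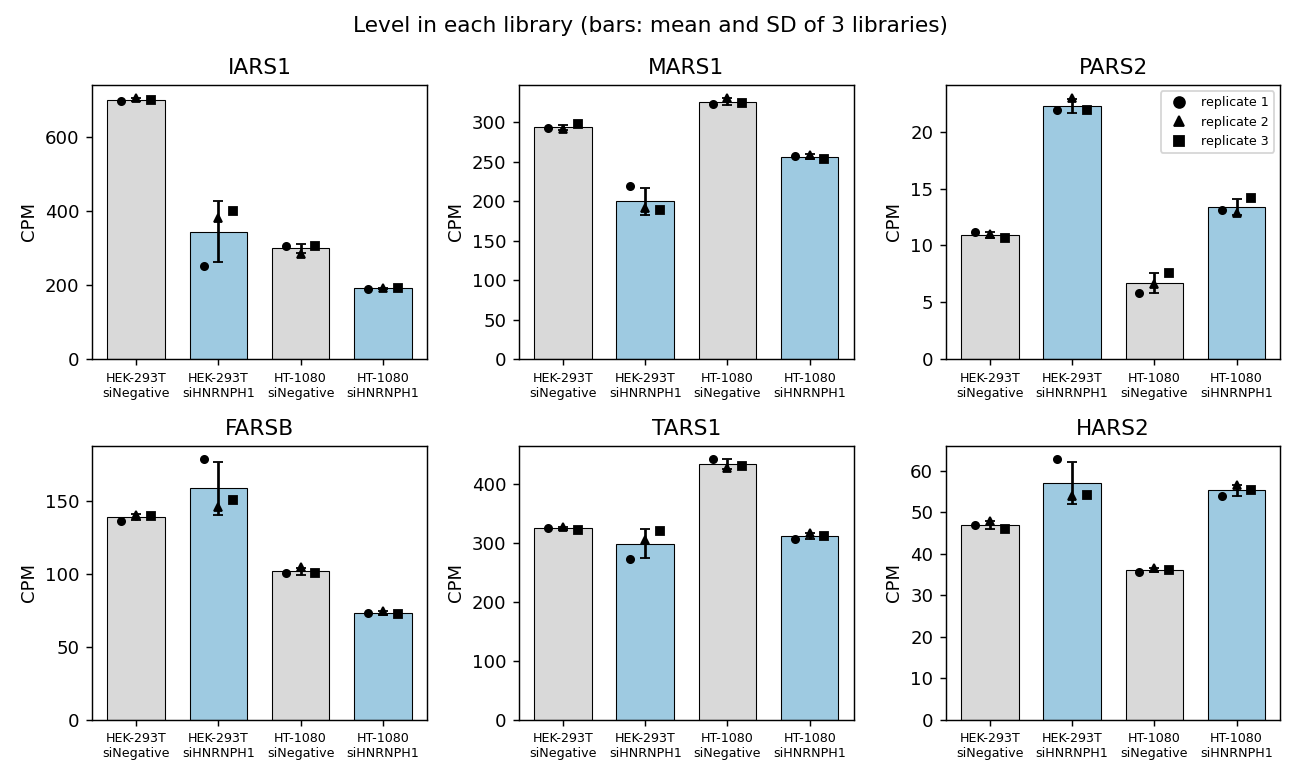
Level (CPM) of 6 synthetase genes in each short-read library. Bars give the mean and SD of 3 libraries, and the symbols mark replicates 1 to 3. IARS1 and MARS1 were lower and PARS2 higher in siHNRNPH1 in both lines, whereas FARSB and TARS1 passed in HT-1080 and not in the fit of all HEK-293T libraries. Without siHNRNPH1 replicate 1, TARS1 passed in HEK-293T (edgeR adjusted p = 0.00146) and FARSB did not (0.293).

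In HT-1080, 14 of the 19 cytosolic synthetases passed, 5 of them higher and 9 lower. Those that rose were KARS1 (lysine, log2 fold change 0.40), HARS1 (histidine, 0.34), EPRS1 (glutamate and proline, 0.22), QARS1 (glutamine, 0.19) and LARS1 (leucine, 0.12). After IARS1 at -0.71, the largest falls were those of TARS1 (threonine, -0.54), FARSB (-0.54), YARS1 (tyrosine, -0.42) and MARS1 (-0.42). AARS1 (alanine, -0.28), GARS1 (glycine, -0.24), WARS1 (tryptophan, -0.19) and RARS1 (arginine, -0.19) fell by less. VARS1 (0.09), CARS1 (0.09), FARSA (0.01), NARS1 (-0.05) and SARS1 (-0.11) did not pass. YARS1 overlaps S100PBP, so its value carries the same uncertainty as that of MARS1.

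FARSB and TARS1 show how narrow the spread was in this line. FARSB was at 101, 105 and 100.4 CPM in siNegative and at 73.0, 74.8 and 72.2 CPM in siHNRNPH1 (SE of the log2 fold change 0.04, edgeR adjusted p = 3.56e-06). TARS1 was at 442, 427 and 429.9 CPM in siNegative and at 306, 316 and 311 CPM in siHNRNPH1 (SE 0.04, edgeR adjusted p = 2.15e-06). KARS1 was at 140.1, 153 and 139 CPM in siNegative and at 196, 202 and 201 CPM in siHNRNPH1 (SE 0.05, edgeR adjusted p = 7.69e-05). None of these groups overlapped. FARSB encodes the beta subunit of cytosolic phenylalanyl-tRNA synthetase, whose alpha subunit is FARSA. FARSA stood at 222 ± 7.0 CPM (SD, n = 3) in siNegative and 235 ± 4.7 CPM in siHNRNPH1, with an edgeR adjusted p of 0.801, and whether the changes of the subunits differ was not tested.

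The 7 enzymes of the multi-synthetase complex all passed in HT-1080, but in both directions: EPRS1, KARS1, LARS1 and QARS1 rose and IARS1, MARS1 and RARS1 fell. In HEK-293T, IARS1 and MARS1 passed, and 4 of the 7 did so without replicate 1. Of the 3 scaffold proteins of the complex, EEF1E1 fell in both lines. EEF1E1 was at 64.6, 62.1 and 63.9 CPM in HEK-293T siNegative and at 45.0, 33.0 and 34.0 CPM in siHNRNPH1, and in HT-1080 at 38.0, 40.5 and 37.4 CPM against 16.9, 16.0 and 17.8 CPM. The siHNRNPH1 libraries were the lower ones throughout. The log2 fold change was -0.79 (SE 0.18, edgeR adjusted p = 0.0466) in HEK-293T (-0.98, adjusted p = 9.92e-16, without replicate 1) and -1.26 (SE 0.06, adjusted p = 1.46e-07) in HT-1080. AIMP2, which holds the lysyl enzyme in the complex, fell in HT-1080 (-0.34, edgeR adjusted p = 0.00343). AIMP1 had 0.07 there (edgeR adjusted p = 0.194) and -0.37 in HEK-293T (adjusted p = 0.0893), where it passed without replicate 1 (-0.35, adjusted p = 2.97e-09).

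Among the 16 mitochondrial synthetases, 10 passed in HT-1080, 4 higher and 6 lower. PARS2 was followed by HARS2 (histidine, log2 fold change 0.55), TARS2 (threonine, 0.49) and RARS2 (arginine, 0.39). MARS2 (methionine, -0.74), VARS2 (valine, -0.60), YARS2 (tyrosine, -0.32), AARS2 (alanine, -0.20), CARS2 (cysteine, -0.20) and NARS2 (asparagine, -0.17) fell. EARS2 (0.15), LARS2 (0.12), WARS2 (0.04), IARS2 (-0.01), SARS2 (-0.04) and FARS2 (-0.15) did not pass. CARS2, EARS2 and FARS2 overlap ING1, GGA2 and LYRM4 respectively. When libraries were scaled by their totals instead of by TMM (trimmed mean of M-values), 26 of the 35 members passed in HT-1080, 13 higher and 13 lower, in place of 9 and 15.

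The mitochondrial genes have lower counts than most cytosolic ones, yet the largest changes were clear of the spread. MARS2 was at 14.8, 12.9 and 16.0 CPM in HT-1080 siNegative and at 8.84, 9.83 and 8.71 CPM in siHNRNPH1 (SE 0.09, edgeR adjusted p = 7.56e-05). VARS2 was at 28.3, 28.0 and 28.7 CPM against 20.6, 19.4 and 18.8 CPM (SE 0.06, edgeR adjusted p = 1.01e-05). No siHNRNPH1 library reached the siNegative range for either gene. TARS2 was at 12.4, 13.3 and 13.8 CPM in siNegative and at 18.2, 19.7 and 20.2 CPM in siHNRNPH1 (SE 0.07, edgeR adjusted p = 0.000206). RARS2 was at 32.3, 32.8 and 33.8 CPM against 44.2, 46.7 and 45.1 CPM (SE 0.05, edgeR adjusted p = 7.66e-05). For both of these genes the siHNRNPH1 libraries were all above the siNegative ones.

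The cytosolic and mitochondrial enzymes for 1 amino acid did not always move together in HT-1080. For methionine both fell, with MARS1 at -0.42 and MARS2 at -0.74. For threonine TARS1 fell and TARS2 rose, and for arginine RARS1 fell (-0.19) while RARS2 rose. For histidine both rose. HARS1 was at 154, 159 and 159 CPM in HT-1080 siNegative and at 211, 208 and 209 CPM in siHNRNPH1, and HARS2 at 35.6, 36.5 and 36.1 CPM against 53.9, 56.5 and 55.3 CPM (edgeR adjusted p = 4.13e-05 and 5.45e-06). In HEK-293T, HARS1 had 139.5, 137 and 137 CPM against 210.1, 159.6 and 161 CPM, and HARS2 had 46.9, 47.8 and 46.1 CPM against 62.9, 53.9 and 54.1 CPM. Each siHNRNPH1 library of both lines lay above the siNegative libraries, although HEK-293T passed only without replicate 1 (edgeR adjusted p = 5.39e-05 for HARS1 and 0.00122 for HARS2). These genes lie head to head on chromosome 5, with starts 85 bases apart in the RefSeq promoter table (GRCh38.p14). Their coding sequences are close relatives, so the division of reads between them by RSEM is uncertain.

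In HEK-293T, replicate 1 of siHNRNPH1 lay above both other replicates in 23 of the 35 genes and below both in 11. The log2 ratio of its CPM to the mean of the other 2 ran from -0.99 for IARS2 to 0.88 for FARS2. IARS2 was at 361, 368 and 365 CPM in siNegative and at 145, 279 and 294 CPM in siHNRNPH1. FARS2 was at 11.89, 12.09 and 11.99 CPM in siNegative and at 17.9, 9.71 and 9.70 CPM in siHNRNPH1. Replicate 1 was thus the lowest library for IARS2 and the highest for FARS2. Across the 29 members with a median length of IsoSeq models, 1672 to 4042 nt, the ratio ran against the length, with r = -0.657 (Pearson) and rho = -0.672 (Spearman). These points share the same libraries and are given as a description. What part RNA quality had in this was not tested. The sign of the log2 fold change was the same with and without replicate 1 in 23 of the 35 members.

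**Figure D3:**
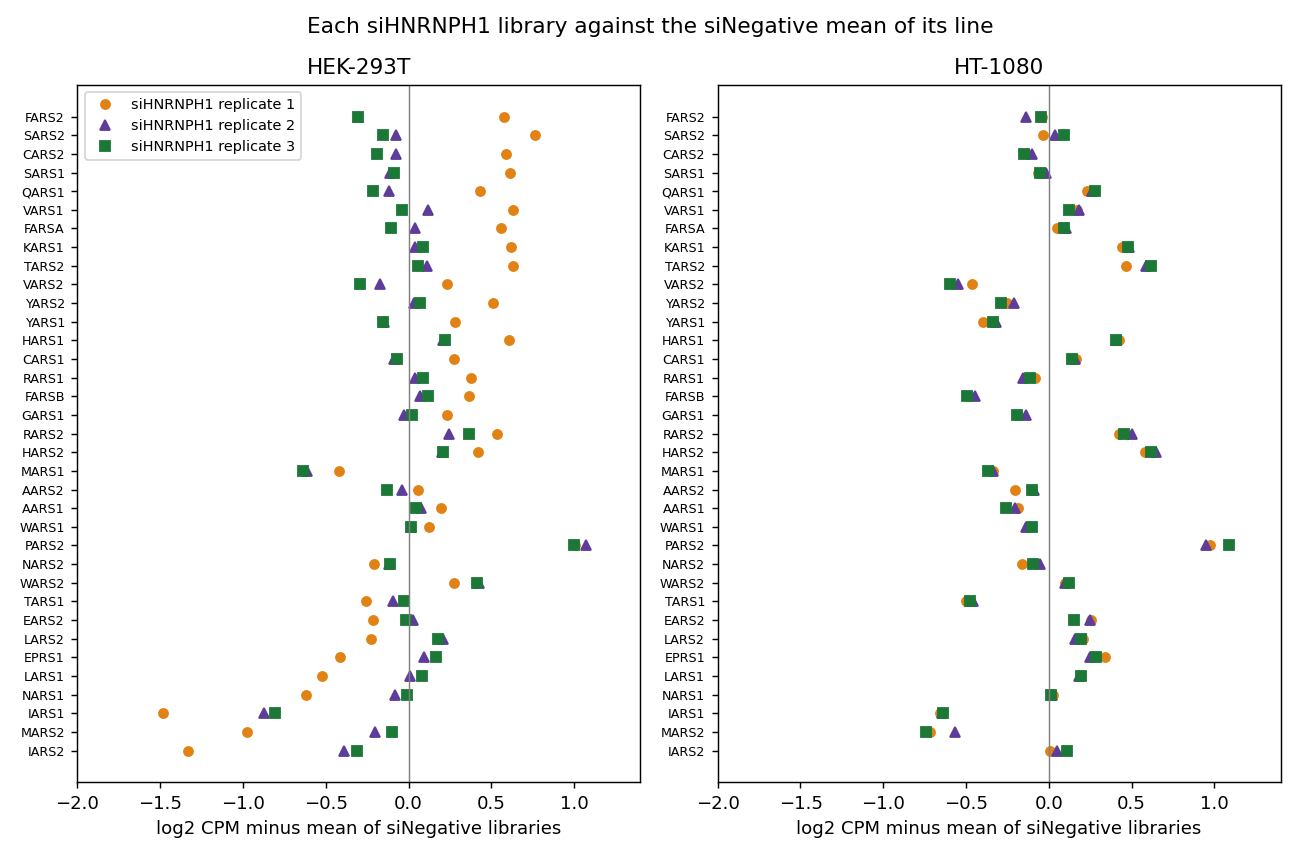
Log2 CPM of each siHNRNPH1 library minus the mean of the siNegative libraries of its line, for the 35 genes, ordered by the departure of HEK-293T replicate 1. In HEK-293T (left) replicate 1 lay above both other replicates in 23 genes and below both in 11, whereas in HT-1080 (right) the 3 replicates lay close together.

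With replicate 1 left out of HEK-293T, 24 of the 35 genes passed, 7 higher and 17 lower, beside 61.8% of all genes tested (30.5% higher and 31.3% lower). PARS2, WARS2 (tryptophan, log2 fold change 0.36), RARS2 (0.25), HARS1 (0.16), HARS2 (0.15), LARS2 (0.14) and EPRS1 (0.07) rose. After IARS1 and MARS1, the largest falls were those of IARS2 (-0.41), FARS2 (-0.36), VARS2 (-0.29), QARS1 (-0.22), YARS1 (-0.21) and MARS2 (-0.21). CARS2 (-0.19), SARS2 (-0.17), NARS2 (-0.17), SARS1 (-0.16), AARS2 (-0.14), CARS1 (-0.13), TARS1 (-0.12), NARS1 (-0.10) and FARSA (-0.09) fell by less. Most of these changes were small, and the fit rests on 2 siHNRNPH1 libraries. Of the 24 genes, 15 also passed in HT-1080, which is 62.5% of the calls of each line, and 14 of the 15 had the same direction: 5 rose and 9 fell in both. The exception was QARS1, which fell in HEK-293T and rose in HT-1080. Over all genes, 68.6% of the HEK-293T calls and 71.2% of the HT-1080 calls passed in both of these fits. Of these 7063 genes, 67.6% had the same direction. The groups of 18 of the 35 genes did not overlap in CPM in HEK-293T with all libraries, and those of 29 did not in HT-1080, beside 43.7% and 70.5% of all genes tested.

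The interaction of cell line and siRNA, fitted over all 12 libraries in edgeR, gave the difference of the siRNA effect between HT-1080 and HEK-293T. It passed for 4 of the 35 genes, beside 19.0% of all genes tested. FARSB had the largest such difference, -0.79 on the log2 scale (HT-1080 minus HEK-293T, SE 0.16, edgeR adjusted p = 0.00649). In HEK-293T it was at 136, 141 and 139.6 CPM in siNegative and at 179, 146 and 151 CPM in siHNRNPH1. It was thus higher in every siHNRNPH1 library there and lower in every one of HT-1080. The rise in HEK-293T did not pass (log2 fold change 0.17, edgeR adjusted p = 0.504). Nor did it without replicate 1 (0.04, adjusted p = 0.293). TARS1 differed by -0.47 (SE 0.10, edgeR adjusted p = 0.0093). In HEK-293T it was at 325, 327 and 322 CPM against 272, 304 and 319 CPM, a smaller shift in the same direction as in HT-1080. AARS1 differed by -0.44 (SE 0.14, edgeR adjusted p = 0.0435). It was at 351.5, 353 and 352 CPM against 403, 372 and 363 CPM in HEK-293T. In HT-1080 it was at 123, 128 and 119 CPM against 108.5, 107 and 103 CPM. Its HEK-293T change did not pass (log2 fold change 0.08, edgeR adjusted p = 0.709), nor did it without replicate 1 (0.003, adjusted p = 0.937). WARS2 differed by -0.38 (SE 0.11, edgeR adjusted p = 0.031), with 30.6, 31.5 and 32.6 CPM against 38.1, 42.4 and 42.1 CPM in HEK-293T and 15.2, 15.3 and 14.6 CPM against 16.1, 16.1 and 16.4 CPM in HT-1080. Without replicate 1 these 4 genes kept a difference of the same sign (adjusted p of at most 0.000433 in edgeR), and 19 of the 35 members passed, beside 49.0% of all genes tested. The calls of AARS1 and WARS2 were lost when any 1 of the HT-1080 libraries was left out, with adjusted p of 0.0628 to 0.123 in edgeR. Leaving out 1 HEK-293T siNegative library had the same effect on AARS1 (0.0828 to 0.0902), and on WARS2 for replicates 1 and 2 (0.078 and 0.0643).

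Several synthetase genes make more than 1 transcript, and the share of each transcript in its gene was tested with limma diffSplice (a Simes p per gene, BH adjusted). In HT-1080, 7 of the 29 members with enough transcripts passed: CARS1, GARS1, IARS1, KARS1, LARS2, RARS1 and WARS1, beside 19.7% of all genes tested. In HEK-293T, 4 of 32 passed (FARSA, HARS2, SARS1 and VARS1), beside 8.66% of all genes tested, and 18 of 32 did so without replicate 1, beside 39.7%. The exact permutation test of 1 transcript's share, with 3 libraries in each group, cannot go below p = 0.1, which every non-overlapping pair of groups below reaches.

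KARS1 makes its enzymes by alternative splicing: inclusion of 1 exon adds the mitochondrial targeting sequence, and its skipping gives the cytosolic form. The share of ENST00000319410.9, the transcript of the mitochondrial form, was 13.7, 13.1 and 11.9% in HT-1080 siNegative and 18.3, 21.5 and 16.4% in siHNRNPH1. That of ENST00000302445.8, the cytosolic form, was 81.8, 82.5 and 84.0% against 77.0, 74.7 and 78.5%. The mitochondrial form held a larger share in every siHNRNPH1 library (limma diffSplice adjusted p = 0.000619, and 0.00113 for the gene). In HEK-293T the share of ENST00000319410.9 was 14, 14.1 and 15.7% against 10.4, 22.5 and 23.2%. Replicates 2 and 3 were above the siNegative libraries and replicate 1 below them, and the gene passed in HEK-293T only without replicate 1 (limma diffSplice adjusted p = 0.194 with it and 1.94e-11 without). In HT-1080 the counts of both transcripts rose, by 0.98 for the mitochondrial and 0.34 for the cytosolic form on the log2 scale (edgeR adjusted p = 0.00645 and 0.0125). In the IsoSeq models, an exon of 180 bases at chr16:75644283-75644462 (minus strand, coordinates of the deposited models) was followed. It was picked as the first internal exon that some models skip and at least 2 models of every pool hold. Its presence in every pool was thus fixed by the choice. Among models across the locus, it was in 3 of 7 (HEK-293T siNegative), 5 of 11 (HEK-293T siHNRNPH1), 2 of 7 (HT-1080 siNegative) and 4 of 11 (HT-1080 siHNRNPH1). Each model counts once whatever its abundance, and the 95% exact Clopper-Pearson intervals of these shares overlap widely (9.9 to 81.6%, 16.7 to 76.6%, 3.7 to 71.0% and 10.9 to 69.2%).

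LARS2, the mitochondrial leucyl enzyme, showed a like shift between its main transcripts in both lines. In HT-1080, ENST00000650792.2 held 11.8, 6.92 and 8.87% in siNegative and 17.3, 14.2 and 15.0% in siHNRNPH1 (limma diffSplice adjusted p = 0.00823). In HEK-293T it held 9.76, 9.48 and 9.75% against 12.2, 17.4 and 17.6%, with adjusted p = 0.302, and 1.07e-06 without replicate 1. ENST00000645846.2 fell by 7.044 percentage points in HT-1080 (adjusted p = 0.0168) and had -6.355 points in HEK-293T (adjusted p = 0.518, and 5.91e-07 without replicate 1). The siHNRNPH1 libraries of both lines lay outside the siNegative range for both transcripts.

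HARS2 had the largest difference of share among the named transcripts. ENST00000642752.1 held 19.7, 21.3 and 19.6% of the gene in HEK-293T siNegative and 49.3, 43.9 and 44.3% in siHNRNPH1, a difference of 25.6 percentage points (23.8 without replicate 1). In HT-1080 it held 9.14, 9.51 and 12.5% against 16.9, 16.6 and 24.1%. ENST00000230771.9 held 43.0, 42.3 and 47.8% in HEK-293T siNegative and 41.2, 28.3 and 26.0% in siHNRNPH1. The groups were apart for both transcripts in HEK-293T. The gene passed in HEK-293T (limma diffSplice adjusted p = 0.042), although ENST00000642752.1 alone did not (adjusted p = 0.136, and 4.08e-11 without replicate 1), and it did not pass in HT-1080 (adjusted p = 0.563). Its own count rose in HT-1080 by 1.48 on the log2 scale (edgeR adjusted p = 0.008) and had 1.499 in HEK-293T (adjusted p = 0.0723).

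IARS1, whose total fell in both lines, also changed in composition. ENST00000443024.7 held 52.8, 48.3 and 56.8% in HT-1080 siNegative and 40.2, 39.6 and 38.2% in siHNRNPH1 (limma diffSplice adjusted p = 0.000131). In HEK-293T it held 59.4, 59.7 and 58.5% against 22.3, 53.3 and 54.4% (adjusted p = 0.712, and 0.000751 without replicate 1). It was lower in all siHNRNPH1 libraries, with replicate 1 of HEK-293T far below the rest. ENST00000375643.7 held 17.7, 16.0 and 15.6% in HT-1080 siNegative and 23.1, 23.4 and 20.7% in siHNRNPH1 (adjusted p = 0.28). For WARS1, the tryptophanyl enzyme, ENST00000392882.7 fell from 28.9, 24.1 and 27.2% to 15.9, 18.7 and 17.6% in HT-1080 (adjusted p = 8.03e-06) and ENST00000358655.8 rose from 45.4, 51.9 and 46.8% to 57.2, 56.0 and 58.7% (adjusted p = 0.00291). In HEK-293T, ENST00000392882.7 held 19.1, 19.2 and 18.2% against 25.7, 16.1 and 24.3%, so its groups overlapped there. ENST00000358655.8 held 66.0, 65.6 and 66.7% against 69.5, 63.5 and 55.2% there. WARS1 had an adjusted p of 0.809 in HEK-293T, and 3.85e-07 without replicate 1, in limma diffSplice. In that fit ENST00000358655.8 fell (-6.748 percentage points, adjusted p = 4.08e-05), against its rise in HT-1080.

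**Figure D4:**
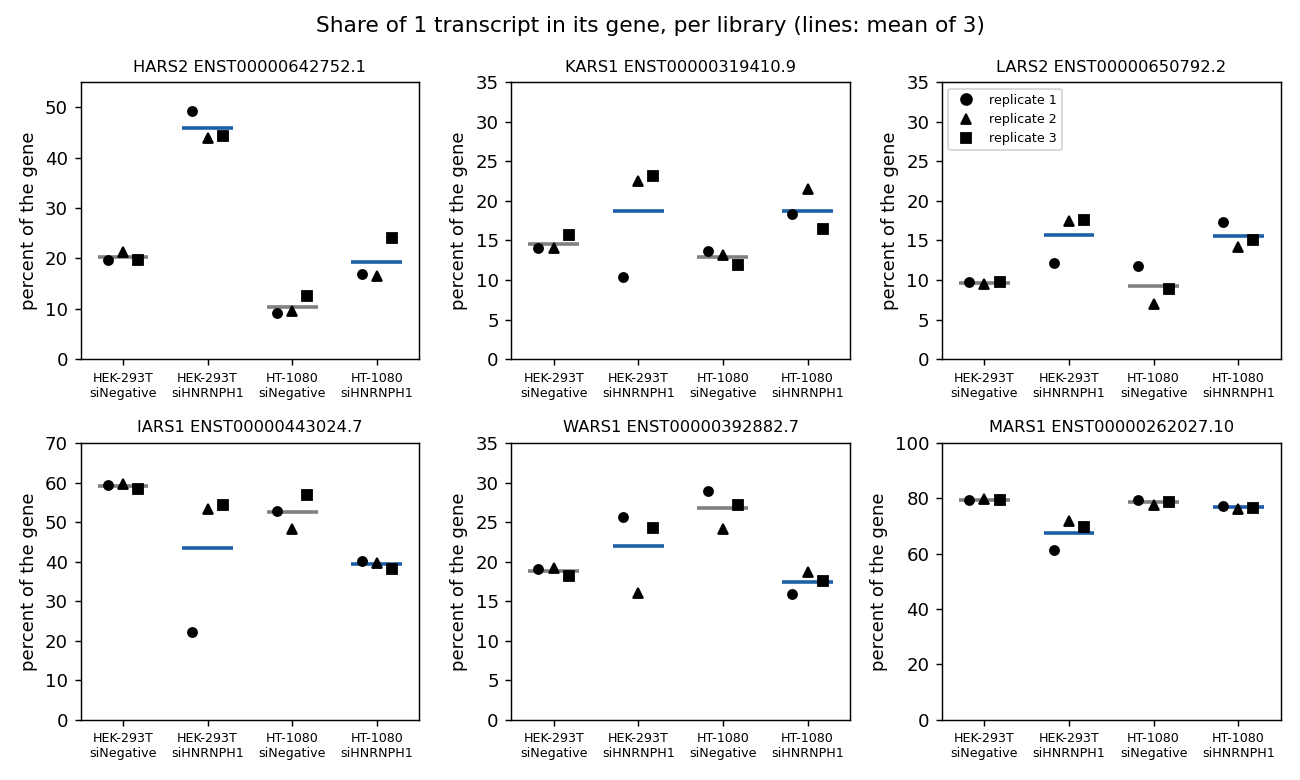
Share of 1 transcript in the counts of its gene (percent) in each short-read library, for 6 synthetase genes, with lines at the mean of 3 libraries and symbols for replicates 1 to 3. The HARS2 and LARS2 transcripts were higher and the IARS1 and MARS1 transcripts lower in all siHNRNPH1 libraries of both lines, and HEK-293T replicate 1 departed from replicates 2 and 3 for KARS1 and IARS1.

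The shifts of the other genes that passed were smaller or less even. In HT-1080, CARS1 (cytosolic cysteinyl enzyme) transcript ENST00000380525.9 fell from 20.5 to 14.6% on average (limma diffSplice adjusted p = 0.000712), and RARS1 transcript ENST00000231572.8 from 98.4 to 97.0% (adjusted p = 0.00616). The other CARS1 transcript, ENST00000278224.13, rose in count by 0.29 on the log2 scale (edgeR adjusted p = 0.00649). GARS1, which makes its mitochondrial form from an upstream start codon, differed mainly between the lines. ENST00000389266.8 held 65.3, 55.9 and 65.3% in HT-1080 siNegative and 70.2, 70.5 and 70.8% in siHNRNPH1 (adjusted p = 0.00992), but 6.63, 9.13 and 7.27% in HEK-293T siNegative. ENST00000674851.1 held 83.0, 80.8 and 81.6% in HEK-293T siNegative and 6.10, 15.6 and 7.82% in HT-1080 siNegative. The lines thus had different main GARS1 transcripts before any depletion of HNRNPH1, a difference not tested here. In HEK-293T, VARS1 (cytosolic valyl enzyme) transcript ENST00000495010.5 held 7.21, 6.96 and 8.11% against 0.51, 5.38 and 6.62% (adjusted p = 0.0135), and its lowest value was again replicate 1. Its main transcript, ENST00000375663.8, held 80.2, 80.8 and 78.5% against 88.1, 83.9 and 81.9% (adjusted p = 0.808). The main transcripts of FARSA (95.3 against 93.4% on average) and SARS1 (93.4 against 95.3%) moved by 2.0 points, with adjusted p of 0.305 and 0.405 in limma diffSplice (0.0002 and 0.401 without replicate 1).

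The MARS1 transcripts were chosen after their values were seen. ENST00000262027.10 held 79.5, 79.7 and 79.5% in HEK-293T siNegative and 61.3, 71.7 and 69.6% in siHNRNPH1 (limma diffSplice adjusted p = 0.0428 for the transcript and 0.127 for the gene, and 7.53e-20 and 3.22e-19 without replicate 1). In HT-1080 it held 79.4, 77.6 and 78.6% against 77.4, 76.3 and 76.5% (adjusted p = 0.287). The share was lower in all siHNRNPH1 libraries, by far less in HT-1080. In the IsoSeq models, an intron of 647 bases at chr12:57512104-57512750 (plus strand) was in 3 of 33 HEK-293T siHNRNPH1 models and 2 of 20 HT-1080 siHNRNPH1 models, with exact Clopper-Pearson intervals of 1.9 to 24.3% and 1.2 to 31.7%. The intron was picked because no siNegative model and more than 1 model of each siHNRNPH1 pool held it. Its counts of 0 of 26 and 0 of 31 siNegative models were thus fixed by the choice. Their exact Clopper-Pearson upper limits were 13.2% and 11.2%, and none of these intervals takes account of the choice. The limits lie within the intervals of the siHNRNPH1 pools, so a difference was not detectable at this number of models.

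The RNA levels of ATF4 and its known targets were set beside those of the synthetases. The ATF4 protein and its activity were not measured in these libraries. ATF4 was at 238, 279 and 237 CPM in HT-1080 siNegative and at 164.5, 162 and 160.3 CPM in siHNRNPH1, a log2 fold change of -0.70 (SE 0.07, edgeR adjusted p = 1.22e-05). ASNS, asparagine synthetase and a widely used ATF4 target, was at 27.0, 29.4 and 25.5 CPM against 9.70, 9.89 and 10.4 CPM, a log2 fold change of -1.52 (SE 0.08, edgeR adjusted p = 1.41e-07). Both genes were lower in every siHNRNPH1 library of HT-1080. In HEK-293T, ATF4 was at 429, 425 and 429 CPM against 489, 316 and 319.5 CPM, and ASNS at 107, 104 and 109 CPM against 110.4, 78.2 and 84.7 CPM. There replicate 1 was above the siNegative libraries and replicates 2 and 3 below them, and neither gene passed (edgeR adjusted p = 0.607 and 0.449). Without replicate 1 both fell, with log2 fold changes of -0.48 for ATF4 and -0.45 for ASNS (edgeR adjusted p = 6.07e-13 and 1.24e-09).

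Of 24 amino acid response genes tested in HT-1080, 18 passed, 5 higher and 13 lower. Over all genes tested in that line, 65.3% passed, 32.7% as higher and 32.6% as lower. The median log2 fold change of the 24 genes was -0.32, beside 0.01 over all genes. The falls included the serine pathway genes PSAT1 (-1.09) and PHGDH (-0.95), the cystine transporter gene SLC7A11 (-1.58) and the mitochondrial folate enzyme gene MTHFD2 (-1.05), whereas STC2 (1.25) and TRIB3 (0.37) rose. In HEK-293T, 3 of 25 passed, beside 10.0% of all genes tested, with PSAT1 lower (-0.50) and ATF5 (0.86) and SLC7A5 (0.63) higher. Without replicate 1, 20 of 25 passed, 11 higher and 9 lower, beside 61.8% of all genes tested. ATF5 instead fell in HT-1080 (-0.28), and ATF3 had 0.42 in HEK-293T and 0.20 in HT-1080 (edgeR adjusted p = 0.065 and 0.0666), and rose in HEK-293T without replicate 1 (0.37, adjusted p = 1.96e-07). Of 13 cytosolic synthetases commonly listed as ATF4 targets, 9 passed in HT-1080, 2 higher and 7 lower (median -0.19), and of the other 6 cytosolic ones 5 passed, 3 higher and 2 lower (median 0.10). In HEK-293T with all libraries, 2 of the 13 passed, IARS1 and MARS1, and 0 of the other 6 (edgeR adjusted p of at least 0.264). Without replicate 1, 8 of the 13 passed there, 1 higher and 7 lower, and 3 of the other 6, 1 higher and 2 lower. Over all genes tested in that fit, 30.5% passed as higher and 31.3% as lower. EPRS1 and LARS1 are the listed targets that rose in HT-1080.

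The letters TGATGNAA, a form of the element to which ATF4 binds with C/EBP proteins, were searched on both strands of the RefSeq promoter windows (GRCh38.p14, 250 bases before to 50 after the start). Of the 35 members, 30 matched an entry of that table, and AARS2, LARS1, VARS1, VARS2 and YARS1 did not. The letters were in a window of 8 of these 30 genes (26.7%), and in 1217 of all 27305 genes with a window (4.46%). Each match is shown with 8 bases on either side, 5′ to 3′ on the strand of the gene, with the match in capitals (TTNCATCA where it lies on the opposite strand), to let its letters and neighbours be compared.
AARS1, chr16:70289678-70289701, minus strand: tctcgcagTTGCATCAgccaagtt
CARS1, chr11:3057410-3057433, minus strand: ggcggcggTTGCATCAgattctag
GARS1, chr7:30594837-30594860, plus strand: cgcggcgaTTTCATCAtgctccga
IARS1, chr9:92293695-92293718, minus strand: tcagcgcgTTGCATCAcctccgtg
MARS1, chr12:57488056-57488079, plus strand: ggttccggTTGCATCAgcgaggga
NARS1, chr18:57621807-57621830, minus strand: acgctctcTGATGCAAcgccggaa
TARS1, chr5:33440959-33440982, plus strand: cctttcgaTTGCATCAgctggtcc
YARS2, chr12:32756079-32756102, minus strand: cacactgcTGATGGAAaaattaag
In HT-1080, 6 of these 8 genes fell (AARS1, GARS1, IARS1, MARS1, TARS1 and YARS2), none rose, and CARS1 (0.09) and NARS1 (-0.05) did not pass. Of the 22 members whose windows do not hold the letters, 6 fell and 8 rose. Over all genes tested in HT-1080, 32.6% fell and 32.7% rose. In HEK-293T with all libraries, IARS1 and MARS1 fell and the rest of the 8 did not pass. Without replicate 1, CARS1, IARS1, MARS1, NARS1 and TARS1 fell there. AARS1, GARS1 and YARS2 did not pass in that fit (edgeR adjusted p = 0.937, 0.0807 and 0.896). The members without the letters were not counted in HEK-293T. The direction of all 1217 genes with the letters was not counted in either line. A match describes letters and not a bound site, and these counts were not tested.

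The proteins that work with the synthetases were counted in the same way, beside the shares of all genes given above (65.3% in HT-1080, and 10.0% in HEK-293T or 61.8% without replicate 1). Of 10 cytosolic aminoacylation partners, 5 passed in HT-1080, 2 higher and 3 lower. In HEK-293T 0 of the 10 passed in edgeR (3 at an unadjusted p under 0.05), 2 passed in DESeq2, and 8 passed in edgeR without replicate 1, 5 higher and 3 lower. EEF1B2, an exchange factor subunit of the elongation factor that receives charged tRNA, had -1.27 in HT-1080 (edgeR adjusted p = 4.39e-07) and -0.83 in HEK-293T (adjusted p = 0.136, and 3.47e-19 without replicate 1). PSTK, a kinase that acts on the selenocysteine tRNA after serine has been attached, rose by 0.70 in HT-1080 (edgeR adjusted p = 2.99e-05). AARSD1, a homologue of the editing domain of alanyl-tRNA synthetase, had 0.15 there (edgeR adjusted p = 0.181). Of 17 tRNA export and maturation genes tested in HT-1080, 13 passed, 1 higher and 12 lower, with a median of -0.24, and 1 of 18 did in HEK-293T (11 without replicate 1, 4 higher and 7 lower). TSEN15, a subunit of the tRNA splicing endonuclease, fell in both lines. Its log2 fold change was -0.78 in HT-1080 (edgeR adjusted p = 2.4e-06) and -0.54 in HEK-293T (adjusted p = 0.0328). The HEK-293T call, like every other there, was lost without siNegative replicate 2 or 3. RPP14, a ribonuclease P protein, fell in HT-1080 (-0.18, edgeR adjusted p = 0.0167). RPP40, another subunit of that enzyme, was the 1 gene of this list that rose in HT-1080 (0.28, edgeR adjusted p = 0.00529). In HEK-293T, PSTK (0.37), AARSD1 (0.23), RPP14 (-0.33) and RPP40 (0.59) passed without replicate 1 and not with all libraries.

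Of 22 mitochondrial translation partners, 12 passed in HT-1080, 2 higher and 10 lower, with a median of -0.14. In HEK-293T 1 passed, and 16 did without replicate 1, 4 higher and 12 lower. The 1 gene that passed with all libraries was GATC, a subunit of the amidotransferase that turns glutamate into glutamine on mitochondrial tRNA, in place of a mitochondrial glutaminyl-tRNA synthetase. GATC was at 84.9, 83.2 and 85.6 CPM in HEK-293T siNegative and at 44.9, 40.9 and 39.7 CPM in siHNRNPH1, and in HT-1080 at 50.9, 50.2 and 49.6 CPM against 25.2, 26.7 and 27.6 CPM. The siHNRNPH1 libraries were far below the siNegative ones in both lines. The log2 fold change was -1.04 (SE 0.13, edgeR adjusted p = 0.00999) in HEK-293T and -0.99 (SE 0.05, adjusted p = 2.21e-07) in HT-1080. QRSL1, the catalytic subunit of the same enzyme, fell in HT-1080 (-0.63, edgeR adjusted p = 1.19e-05), and GATB, the remaining subunit, had -0.06 (adjusted p = 0.389). MTFMT, which formylates the initiator methionyl-tRNA, had 0.16 in HT-1080 and 0.63 in HEK-293T, and PTCD3, a protein of the small mitochondrial ribosomal subunit, had -0.14 and -0.44 (edgeR adjusted p of at least 0.0577 for both genes in both lines). Without replicate 1 both passed in HEK-293T, with 0.47 for MTFMT and -0.33 for PTCD3 (edgeR adjusted p = 3.27e-07 and 6.26e-09).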

How the data were processed

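Short-read RNA-seq libraries (12) and IsoSeq pools (4) were analysed. Per the labels, the authors deposited expected counts per transcript estimated by RSEM, in 1 table per line. GRCh38.p13 is named in the submitters' processing notes, and the RSEM version, annotation and strandedness are not given in the sources used here. All value columns matched a sample. The deposited IsoSeq files hold transcript models without read counts. The members and lists were chosen with earlier results of these data known.

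Expected counts were summed per gene, rounded, filtered (filterByExpr), TMM-scaled and tested over all genes in each line with edgeR 4.0.16 (quasi-likelihood, robust, two-sided). Usage was tested with limma 3.58.1 (diffSplice on voom weights). All p-values were BH adjusted over everything tested, with a threshold of 0.05. CPM is the count over the library total, so a ratio of CPM differs slightly from the TMM-scaled one. The steps were tested on simulated data.

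All 35 genes are named. Every library's value is given for those that passed in both lines and, in each line, for up to 5 per direction with the largest change among those that passed. Transcripts shown are up to 2 per gene with changed usage, each at least 5% of the gene. From each other list, the 3 genes with the smallest larger adjusted p over the lines were named. Their mean count was at least 50 in both lines. Further genes of those lists, the MARS1 transcripts and intron, and the count shared by both lines were chosen after their values were seen. IsoSeq models were matched to members with a promoter entry by span and strand. Motifs were searched in RefSeq promoters. Alternatives were RLE and library-size scaling, other filters, DESeq2 1.42.0, a replicate block, diffSpliceDGE, a fit of all 12 libraries and leaving out each library. Intervals cover counting error only.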

Additional observations from a re-analysis of the deposited data

Results flagged for a closer look

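By the interaction test in edgeR, 4 of the 35 genes responded to the siRNA differently in the lines. The differences (HT-1080 minus HEK-293T, log2 scale) were -0.79 for FARSB, -0.47 for TARS1, -0.44 for AARS1 and -0.38 for WARS2. FARSB and AARS1 were higher in all siHNRNPH1 libraries of HEK-293T and lower in all of HT-1080. Their falls passed in HT-1080, but their HEK-293T changes did not (edgeR adjusted p = 0.504 and 0.709), nor without replicate 1 (0.293 and 0.937). WARS2 was higher in all siHNRNPH1 libraries of both lines, by less in HT-1080. It did not pass with all libraries of HEK-293T or of HT-1080 (edgeR adjusted p = 0.0997 and 0.579). All 4 had the same sign under each alternative run, but not all passed in each. With library-size scaling or a replicate block, FARSB alone passed (edgeR adjusted p = 0.00442 and 0.0373). TARS1 had 0.0535 and 0.0674 in those runs.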

How the results depend on the processing

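In HEK-293T, where 1 siHNRNPH1 library of 3 stood apart, 3 members passed. That count was 6 in a fit of all 12 libraries and ran from 0 to 24 when 1 library was left out (3 members at an unadjusted p under 0.05 where it was 0, in edgeR). In HT-1080 the fit of all 12 libraries gave 11 members, with 0 cytosolic members higher and 2 mitochondrial members lower (16 members at an unadjusted p under 0.05). The interaction count of 4 was 1 with library-size scaling and 2 to 19 with 1 library left out. Changed usage in HEK-293T was 2 with diffSpliceDGE and 2 among transcripts of at least 5% of the gene, and 0 to 18 with 1 library left out (4 to 20 at an unadjusted p under 0.05). In HT-1080 it was 2 with diffSpliceDGE. The cause was not tested. The log2 fold change of VARS2 in HEK-293T ran from -0.29 to 0.0345 over the libraries left out and turned positive without siHNRNPH1 replicate 3. MARS1 in HEK-293T did not pass with no filter on low counts (edgeR adjusted p = 0.105), and KARS1 and TARS2 in HT-1080 did not in the fit of all 12 libraries (0.11 and 0.0612). With DESeq2, 4 members passed in HEK-293T, and 23 did in HT-1080. The labels give shared replicate numbers but no shared batch. Deviations of same-numbered libraries from their group means correlated at -0.056 to 0.055. With 3 libraries per group, these values cannot decide whether such libraries shared a batch. With a replicate block, 0 members passed in HEK-293T (4 at an unadjusted p under 0.05, edgeR) and 24 in HT-1080, 1 in the interaction, and usage changed for 2 members in HEK-293T and 10 in HT-1080.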

Other observations

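By structural class, 13 of the 19 class I synthetases passed in HT-1080 (4 higher, 9 lower) and 11 of the 16 class II synthetases did (5 higher, 6 lower), in edgeR. EPRS1, which serves both glutamate and proline, was counted in class I only, whereas the prolyl enzyme PARS2 was counted in class II. In HEK-293T without siHNRNPH1 replicate 1, 13 class I genes (4 higher, 9 lower) and 11 class II genes (3 higher, 8 lower) passed. Over all genes tested 65.3% and 61.8% passed in these fits, so both classes lay near the share of genes in general. Of the 5 largest falls in HT-1080, MARS2, IARS1 and VARS2 are class I and FARSB and TARS1 class II. A difference between the classes was not tested.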
